A study of Arabidopsis thaliana with 24 samples.

Results

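The genes described here carried no count in any of 12 IP-Svi-0 libraries while they averaged at least 1 CPM (the count of a gene scaled to a library of 1000000 counts at nuclear genes) over 12 Col-0 libraries. They numbered 259 of 33602 genes in the deposited table, and 1.32% of the 19590 nuclear genes at 1 CPM or more in Col-0. The rule was met by 262 genes, and 3 of them are not described, being among 6 IDs that were left out. The reverse pattern, no count in Col-0 and at least 1 CPM in IP-Svi-0, held for 105 nuclear genes. Chloroplast and mitochondrial genes were not considered.

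Whole seedlings of Arabidopsis thaliana were grown on half-strength MS medium at 10, 16, 23 or 27 °C after cold treatment of the seeds. Col-0 is the reference accession, whose genome served for alignment, and IP-Svi-0 is another natural accession. Each accession had 3 libraries at each temperature. Seedlings kept at 10 °C were 23 days past transfer when taken, those kept at 16 °C were 12 days, those kept at 23 °C were 8 days and those kept at 27 °C were 7 days. Growth temperature and age therefore cannot be told apart. Nothing in the labels says whether replicates came from separate cultures, and p-values then measure only the spread between these libraries.

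Natural accessions of a plant species differ in which genes they carry, and immune receptor genes and genes for specialised metabolites are known for such differences. Many of these genes lie beside copies of themselves, where unequal crossing-over can add or remove a copy. Reads of an accession that lacks a gene, or carries a strongly diverged copy of it, find no place at that gene in a reference genome, and the same table entry of 0 arises when the gene is present but not transcribed. These cases cannot be told apart with a count table alone. Reads without an alignment made up 1.35 to 1.98% of the IP-Svi-0 libraries and 0.364 to 0.533% of the Col-0 libraries, and their part in the missing counts was not tested.

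Nuclear genes held 6441325 counts in Col-0 libraries and 7483289 in those of IP-Svi-0, from 327795 to 867526 per library. A gene at 1 CPM would thus be given 7.48 counts over the IP-Svi-0 libraries, and 3 counts, the limit that a count of 0 allows, correspond to 0.401 CPM. Only 1.41 to 3.61% of the reads of a library were counted at genes and 59.6 to 89.8% fell at no counted feature. The kit marked the strand, but the sources used here do not give how strand was set in counting, so the counts of a gene may come from the other strand and the overlapping gene is named below. Summed markers of shoot, root and seed were counted in all 24 libraries, at 8912 to 40268, 18.3 to 109.8 and 13.9 to 1015 CPM. IP-Svi-0 exceeded Col-0 without overlap for shoot markers at 10 °C, at 30451 to 40268 against 8912 to 14995 CPM. At 16 °C these were at 18473 to 24464 against 9732 to 16129 CPM. Seed markers at 27 °C were at 757 to 1015 against 13.9 to 87.4 CPM, and root markers at 10 °C are given below. Other ranges overlapped, and the part of these markers in accession differences was not tested. In bulk seedlings, fewer cells of a type and less RNA per cell cannot be told apart.

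Most of the 259 genes had a low level in Col-0, with a median of 3.23 CPM. Of them, 97 reached 5 CPM, 60 reached 10 CPM, 12 reached 50 CPM and 7 reached 100 CPM. Counts were present in all 12 Col-0 libraries for 70 genes and in fewer than 6 for 31 genes. A single Col-0 library held counts for 155 to 216 of the genes. Together they took 23678 counts, 0.368% of the nuclear counts of Col-0, and 30.6% of these lay at 3 genes. Measured against the limit of 0.401 CPM, the level in IP-Svi-0 was at least 2.51-fold lower for the gene nearest to 1 CPM and at least 8.07-fold lower for the median gene. The genes were chosen by their counts in both accessions, so these values are a description and were not tested.

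The limit of 1 CPM cut through a dense range of values. Just above it stood AT5G39473, AT5G48710 and AT5G56747, each at 1.01 CPM with 6, 6 and 7 counts over the Col-0 libraries. Just below it stood AT3G25719 at 0.998 CPM, AT5G37445 at 0.997 CPM and AT3G58420 at 0.988 CPM. The other limit excluded genes with a much higher level in Col-0 and 1 count in IP-Svi-0. The highest of these were AT1G29355 at 558 CPM, DRP4D (AT1G60510) at 390 CPM and AT5G28919 at 145 CPM.

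The highest level belonged to AT4G01595, annotated as a protein kinase family protein, at 496 ± 108 CPM (SD, n = 12). Its lowest, median and highest Col-0 libraries held 307, 475 and 661 CPM, so the level in IP-Svi-0 was at least 1238-fold lower. It shares 577 bp of exon with the noncoding AT4G01593 on the other strand, which had 64 Col-0 counts against 2 from IP-Svi-0. Its closest protein elsewhere in the genome, the mitogen-activated protein kinase MPK18, was counted in both accessions, at 23.1 ± 9.18 CPM in Col-0 and 33.9 ± 10.3 CPM in IP-Svi-0 (SD, n = 12).

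AT1G24996, an uncharacterised protein, stood at 384 ± 226 CPM, with 217, 337 and 1080 CPM in its lowest, median and highest library. The highest value was replicate 1 at 16 °C, and no other library exceeded 386 CPM. DRP4A (AT1G60530), related to the dynamin GTPases that pinch membranes, stood at 290 ± 58.7 CPM (SD, n = 12), from 208 to 389 CPM. AT1G34842, annotated as a pseudogene across from AT1G34844, stood at 157 ± 32.9 CPM and was next in order. The remaining genes among the 15 highest included AT3G27980, annotated as a pectin methylesterase inhibitor, at 71.1 ± 25.9 CPM, and the uncharacterised AT3G13270, AT1G15885, AT5G38980 and AT1G27285, at 74.7, 57.0, 51.4 and 49.3 CPM. AT3G27980 shares 1494 bp of exon with AT3G27990 on the other strand. The levels of DRP4A and AT1G24996 overlapped between libraries, while AT1G34842 lay below AT4G01595 in every library.

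WRKY41 (AT4G11070), a transcription factor known from defence and seed dormancy, was the most abundant regulator of the set at 112 ± 40.2 CPM (SD, n = 12). Its libraries ranged from 63.9 to 221 CPM with a median of 104.9 CPM, and the level in IP-Svi-0 was at least 279-fold lower. The gene shares 491 bp of exon with 3xHMG-box1 (AT4G11080), a chromatin protein, which was counted in both accessions at 12.6 ± 5.06 and 5.35 ± 3.3 CPM. The other transcription factors of the set lay between 1.59 CPM (AGL102, a MADS-box protein) and 11.9 CPM (AT2G41440, annotated as an agamous-like MADS-box protein). WOX2, a homeobox factor of the early embryo, stood at 4.34 ± 4.27 CPM.

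**Figure D1:**
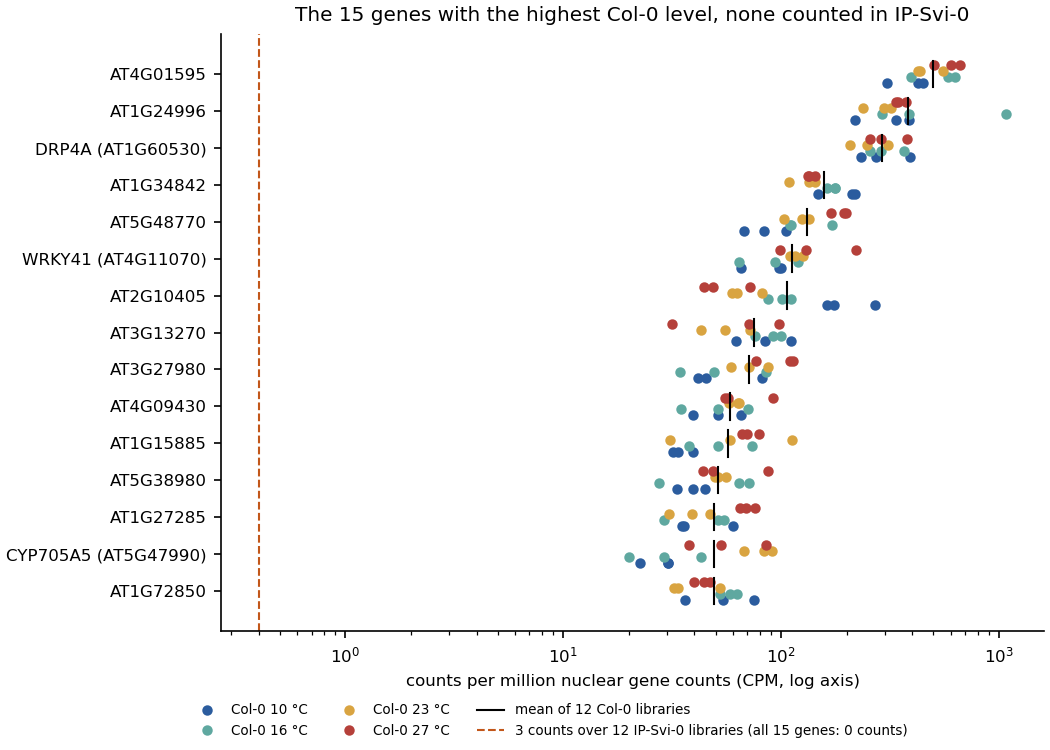
CPM in each Col-0 library (log axis; points coloured by temperature, black bars the mean of 12 libraries) for the 15 genes with the highest level, with a dashed line at 0.401 CPM, the level of 3 counts over the 12 IP-Svi-0 libraries. The means run from 49.0 CPM (AT1G72850) to 496 CPM (AT4G01595) and all points lie to the right of the dashed line.

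The annotation of these genes differed from that of other genes above the same limit. Protein-coding genes made up 69.5% of the 259 and 97.3% of the other 19328 nuclear genes at 1 CPM or more. Pseudogenes were 57 of the 259 (22.0%) against 1.12% of the others, and 20 were long or other noncoding RNAs. A gene symbol was given to 28 (10.9%) against 44.0%. Exon overlap with a gene on the other strand was found for 64 (24.8%) against 30.1%. Of the hypothetical and unknown proteins 87 of 3013 had no count in IP-Svi-0 (2.89%). These shares describe the set and were not tested.

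Immune receptors with a nucleotide-binding domain and leucine-rich repeats, called NLRs, sense pathogen molecules inside the cell. They supplied 19 of the 259 genes, out of 116 NLR genes at 1 CPM or more in Col-0 (16.4%), beside 1.32% of all nuclear genes. Their levels ran from 1.28 to 131 CPM with a median of 3.66 CPM. Of the 19, 15 carry TIR domain annotations, 3 carry coiled-coil annotations and 1 names neither. AT5G48770 (TIR-NBS-LRR class) stood highest at 131 ± 42.9 CPM, with 67.5, 118 and 199 CPM as its lowest, median and highest values. It shares 3497 bp of exon with the noncoding AT5G48775, also without a count in IP-Svi-0 and at 16.9 ± 6.98 CPM in Col-0 (SD, n = 12).

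AT4G09430 (TIR-NBS-LRR class) followed at 58.5 ± 14.7 CPM and AT1G72850 (TIR-NBS class) at 49.0 ± 12.8 CPM. The 33 further NLR genes with enough counts for a test, none of them in the set, were compared between the accessions over the 4 temperatures. edgeR called 17 of them lower and 2 higher in IP-Svi-0 at an adjusted p under 0.05, beside 16.7% lower and 16.0% higher among all 10097 genes tested. Their median log2 difference (IP-Svi-0 minus Col-0) was -0.76, and that of all tested genes was 0.02. NLR genes that lie beside the set, such as AT1G72860, also count among the neighbours compared below, so these comparisons share genes.

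Proteins with a cysteine/histidine-rich C1 domain, a zinc-binding fold, made up 10 of 39 such genes at 1 CPM or more (25.6%). They ran from 1.04 CPM (AT2G02630) to 9.93 ± 3.29 CPM (AT2G21850). Enzymes of terpenoid and triterpene synthesis made up 7 of 38 (18.4%), from 1.28 CPM (AT3G14530) to 32.2 CPM (THAS1). Both lists were added after the values had been seen. Defensin-like and small cysteine-rich peptides gave 3 of 33 genes (9.09%), among them the thionin AT1G66100 at 2.06 ± 2.3 CPM (SD, n = 12).

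Other large families came closer to the share of all genes. F-box proteins, which mark targets for degradation, gave 8 of 219 (3.65%), the highest of them AT4G33290 at 6.9 ± 5.02 CPM. Receptor-like proteins and kinases gave 6 of 269 (2.23%), led by the leucine-rich repeat kinase AT5G59660 at 15.7 ± 7.45 CPM and RLP2 at 10.5 ± 4.35 CPM. Lectins and jacalins gave 3 of 123 (2.44%), cytochromes P450 gave 3 of 170 (1.76%) and transcription factors gave 7 of 1003 (0.698%). No gene of the lists of proteases and their inhibitors (384 genes), glycosyltransferases (150 genes) or TRAF/MATH domain proteins (36 genes) was in the set.

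**Figure D2:**
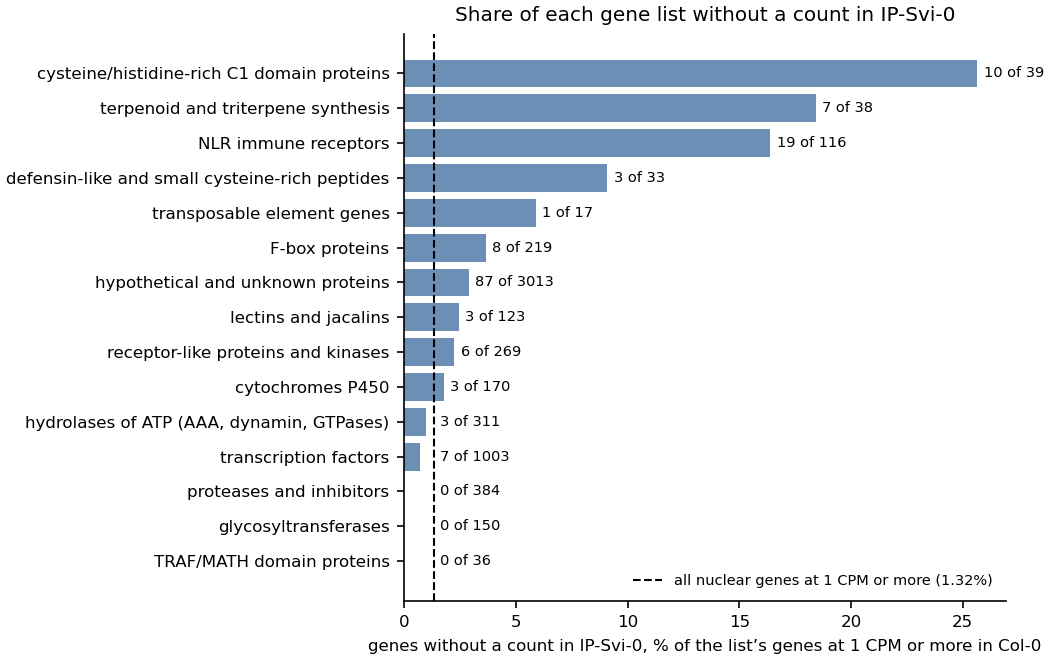
Genes without a count in IP-Svi-0 as a percentage of each list's genes at 1 CPM or more in Col-0, with the numbers beside the bars and a dashed line at 1.32%, the share over all nuclear genes. C1 domain proteins (25.6%), terpenoid enzymes (18.4%) and NLRs (16.4%) stand highest, and the lists of proteases, glycosyltransferases and TRAF/MATH domain proteins are at 0.

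The set was spread over all 5 chromosomes, from 1.15% of the genes at 1 CPM or more on chromosome 5 to 1.64% on chromosome 4. On the TAIR10.1 annotation, 61 of 258 placed genes (23.6%) stood directly beside another gene of the set, in 28 runs. Of the set, 14 genes share exon bases with another gene of the set on the other strand, so such pairs are not separate places on the chromosome. When genes under 1 CPM in Col-0 were passed over, 85 genes (32.9%) lay in 34 runs, of which 12 held 3 or more genes. The longest held 5 genes.

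The thalianol genes of chromosome 5 are a known metabolic cluster, in which neighbouring genes make a triterpene of the root. The cluster was split between the accessions. THAS1 (AT5G48010), thalianol synthase, which folds the triterpene precursor into thalianol, had 224 Col-0 counts and 0 in IP-Svi-0. CYP705A5 (AT5G47990), a cytochrome P450 that acts on the thalianol backbone, had 351 and 0 counts, and the acyltransferase gene AT5G47980 had 25 and 0. CYP708A2 (AT5G48000), the thalianol hydroxylase that lies between CYP705A5 and THAS1, was counted in all 12 IP-Svi-0 libraries.

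CYP708A2 had 12.8, 29.3 and 61.6 CPM as its lowest, median and highest values in Col-0 and 77.4, 113 and 203 CPM in IP-Svi-0. The accessions did not overlap, and edgeR called the gene higher in IP-Svi-0 by 1.89 ± 0.18 on the log2 scale (SE, adjusted p = 2.07e-11). The gene is no member of the set, and both its P450 and cyclase neighbours are. Summed root markers also differed between the accessions, at 74.0 to 85.0 CPM in IP-Svi-0 against 24.1 to 38.3 CPM in Col-0 at 10 °C and with overlap at 16, 23 and 27 °C, and their part in the value of CYP708A2 was not tested. On the flanks, AT5G47970, an aldolase-type protein, was lower in IP-Svi-0 (87.7 ± 22.8 against 133 ± 66.5 CPM, log2 difference -0.63 ± 0.19, adjusted p = 0.00809). AT5G48020, an oxygenase, did not pass the test (17.3 against 20.2 CPM, adjusted p = 0.162).

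A second block lay on chromosome 1 among dynamin-related genes. DRP4A (1804 counts in Col-0) and the noncoding AT1G60525 (53 counts) and AT1G60505 (33 counts) had none in IP-Svi-0. DRP4D (AT1G60510), annotated as a transcribed pseudogene across from AT1G60505, missed the set by 1 count: it had 2449 Col-0 counts against 1 from IP-Svi-0. The 12 Col-0 libraries ranged from 272 to 557 CPM for DRP4D and the IP-Svi-0 libraries from 0 to 1.26 CPM, without overlap. DRP4C had 1 and 0 counts. The flanking VPS34, a lipid kinase of vacuolar sorting, had 61 and 92 counts and the noncoding AT1G60545 on the other side had 61 and 86.

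Immune receptors formed the next blocks. On chromosome 1, AT1G72840, AT1G72850, AT1G72852 and AT1G72855 stood side by side with 41, 307, 214 and 231 counts in Col-0. AT1G72852 is noncoding and shares 1093 bp of exon with the receptor gene AT1G72850 on the other strand. AT1G72860 follows this run, another TIR-NBS-LRR gene, and overlaps the noncoding AT1G72855 on the other strand. It had 1016 Col-0 counts against 4 from IP-Svi-0 (163 ± 37.9 against 0.628 ± 1.21 CPM, SD, n = 12), and edgeR's adjusted p was 2.91e-21. AT1G72870 beyond it was again in the set (22 counts), while AT1G72880 and AT1G72890 had 27 and 29 counts in Col-0 and 17 and 10 in IP-Svi-0.

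On chromosome 4, AT4G09420, AT4G09430 and the noncoding AT4G09432 had 12, 382 and 137 counts in Col-0. The next counted gene, the transcription factor gene MYB6 (AT4G09460), had 25 Col-0 counts against 16 from IP-Svi-0. In the RPP5 receptor cluster of the same chromosome, AT4G16880, AT4G16892, AT4G16900, AT4G16915 and AT4G16960 had 12 to 54 counts in Col-0. RPP5 (AT4G16950), a receptor for downy mildew in another accession, was counted in both and was lower in IP-Svi-0 (7.38 ± 3.87 against 18.9 ± 7.4 CPM, log2 difference -1.42 ± 0.26, adjusted p = 3.11e-05). AT4G16870 within this cluster, annotated as a pseudogene, moved the other way, with 26 Col-0 counts against 372 from IP-Svi-0 (log2 difference 3.60, adjusted p = 8.7e-15).

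RLP2 (AT1G17240), a receptor-like protein, lay in a run with RTFL11 (AT1G17235), which encodes a small peptide of the ROTUNDIFOLIA family, and the noncoding AT1G17255. RLP3 (AT1G17250), known as a gene for resistance to the fungus Fusarium, follows and shares 2271 bp of exon with AT1G17255 on the other strand. RLP3 had 60.3, 106 and 139 CPM as its lowest, median and highest Col-0 values and 1 count over the IP-Svi-0 libraries. On the near side, the receptor kinase gene AT1G17230 had 445 Col-0 counts against 648 from IP-Svi-0, and its adjusted p was 0.158. The closest protein to RLP2, the peptide hormone receptor PSY1R (AT1G72300), was counted in both accessions at 44.0 ± 9.71 and 36 ± 11.1 CPM (SD, n = 12, adjusted p = 0.0812).

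**Figure D3:**
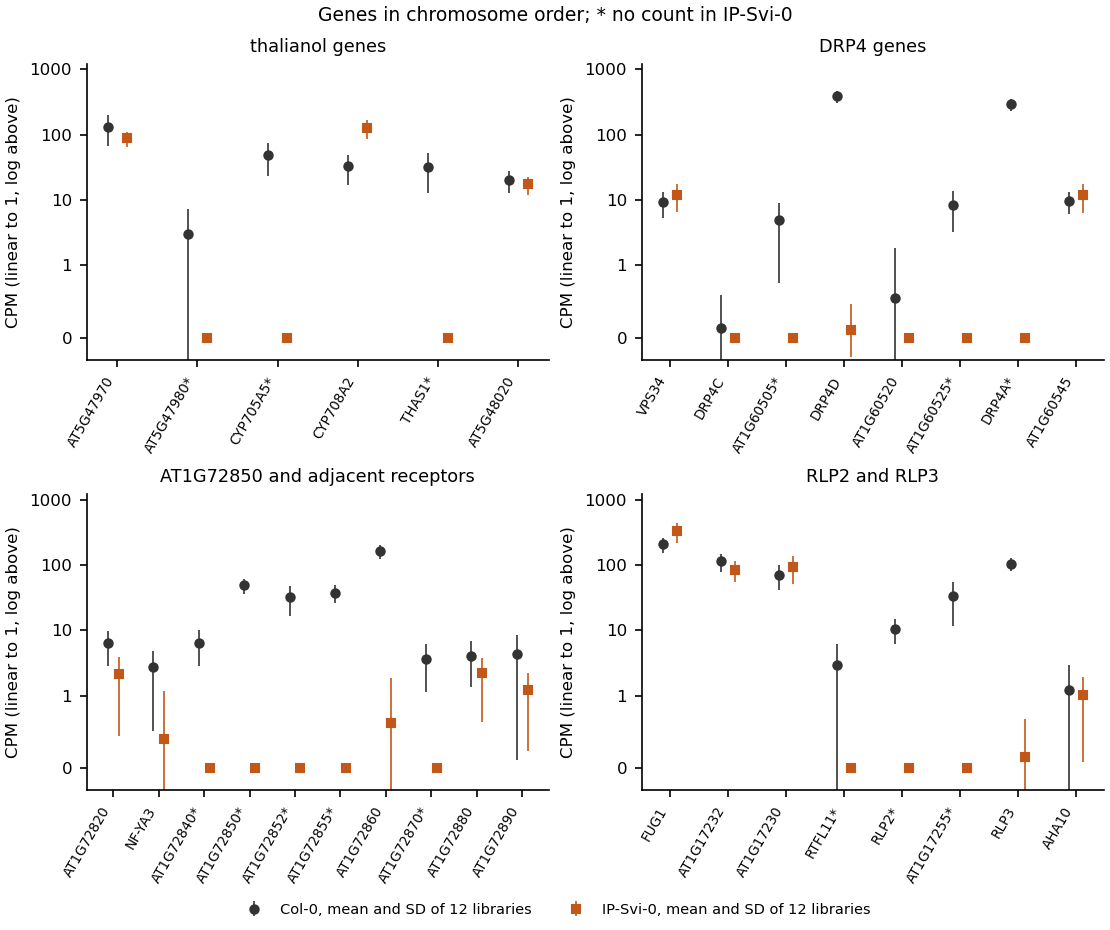
Mean CPM and SD over 12 libraries of Col-0 (circles) and IP-Svi-0 (squares) for genes in chromosome order, on an axis that is linear to 1 CPM and logarithmic above, with stars on genes of the set. CYP708A2 lies at 127 CPM in IP-Svi-0 between starred genes at 0, and RLP3, DRP4D and AT1G72860 lie below 1 CPM in IP-Svi-0 beside starred genes.

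Runs of 3 or more genes without receptor annotations were also found. On chromosome 3, AT3G44705, AT3G44710, AT3G44713 and AT3G44716 stood side by side with 33, 15, 9 and 22 counts in Col-0, and AT3G44704 and AT3G44717 on either side had 2 and 1 Col-0 counts and none from IP-Svi-0. AT3G44710 is annotated as a DUF247 membrane protein and AT3G44705 as a pseudogene. Further along, the genes AT3G60930, AT3G60957 and AT3G60960 had 9, 21 and 46 counts, beyond AT3G60920, a BEACH domain gene counted in both accessions (141 and 163). AT3G60980, AT3G61010 and AT3G61020 followed with 17, 76 and 70 counts. AT3G60960 and AT3G60980 are annotated as tetratricopeptide repeat proteins, and AT3G61010 as a ferritin-like protein.

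On chromosome 1, the ubiquitin-like genes AT1G53950 and AT1G53980 lay in a run with AT1G53935, at 27, 19 and 24 counts. The lipase gene GLIP3 (AT1G53990) beside them had 6 Col-0 counts against 23 from IP-Svi-0. AT1G34842 lay in a run with AT1G34844, AT1G35112 and AT1G35115 (19, 55 and 165 counts), spread over 94.3 kb with 34 genes between them. AT4G07507, AT4G07825 and AT4G07830 on chromosome 4 (9, 85 and 16 counts) were spread over 339 kb with 74 genes between them, each of those under 1 CPM in Col-0.

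Smaller groups of like genes were also without counts. The phloem lectin genes PP2-A6 and PP2-A8 stood side by side at 8.29 ± 6.64 and 6.05 ± 5.63 CPM, next to the receptor gene AT5G45060, whose level in IP-Svi-0 was lower (log2 difference -1.74 ± 0.26, adjusted p = 1.67e-06). HSD2 and HSD3, hydroxysteroid dehydrogenases, had 13 and 17 counts in Col-0. AT3G14530, whose closest protein is GGPS3 (94.2% identical), a prenyl diphosphate synthase, had 9 counts, and its neighbour AT3G14540, annotated as a terpenoid cyclase, had 14. The terpenoid synthase gene AT4G20230 had 11 counts beside the P450 gene CYP71A28 with 10. With so few counts these pairs rest on presence in some Col-0 libraries only. The C1 domain genes AT4G01910 and AT4G01925 lay in a run of 3 with AT4G01915, at 1.55, 6.35 and 1.95 CPM.

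The genes around the set were then compared between accessions, since the rule did not choose them. Of 437 nearest genes on either side, 112 had enough counts for a test. edgeR called 43 lower and 16 higher in IP-Svi-0 (38.4% and 14.3%), beside 16.7% and 16.0% of all genes. The median log2 difference was -0.27 against 0.02 for all tested genes. A decrease of at least 8-fold was called for 20 of them (17.9%), beside 1.66% of all genes. Neighbours that share no exon with the set gave 30 lower and 15 higher of 94 (median log2 difference -0.18). A decrease of at least 8-fold was called for 11 of these 94 (11.7%). AT5G45460 beside AT5G45450 was among the lowest, with 812 Col-0 counts against 2 from IP-Svi-0 (log2 difference -8.71 ± 0.32, adjusted p = 4.67e-21).

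Among the 16 neighbours called higher was AT2G21040, a lipid-binding protein gene next to AT2G21020 and AT2G21030. It had 15.2 to 50.6 CPM in the IP-Svi-0 libraries and 0 to 3.05 CPM in Col-0. The groups did not overlap, and the log2 difference was 5.39 ± 0.41 (SE, adjusted p = 2.15e-13). AT5G35940, a mannose-binding lectin gene next to AT5G35935, had 33 Col-0 counts against 252 from IP-Svi-0 (log2 difference 3.14 ± 0.50, adjusted p = 4.57e-06). Among those called lower was ASB1, a subunit of anthranilate synthase in tryptophan synthesis, which overlaps AT1G25211 (20.6 ± 8.42 against 3.91 ± 3.21 CPM, log2 difference -2.50 ± 0.30, adjusted p = 1.58e-08).

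Genes that overlap the set on the other strand share its sequence. Of 38 such genes outside the set, 18 were tested, 13 were called lower and 1 higher in IP-Svi-0 (72.2% and 5.56%), and the median log2 difference was -2.91. The 18 tested neighbours that share an exon with the set gave the same calls and median, so the neighbours and these genes are not separate sets. The most abundant was AT2G04380, an uncharacterised gene across from the beta-galactosidase related gene AT2G04378, with 9824 Col-0 counts against 5 from IP-Svi-0. Its values were 1539 ± 190 against 0.768 ± 2.14 CPM (SD, n = 12), and edgeR's adjusted p was 8.27e-25. AT1G29355, across from the noncoding AT1G29357, had 558 ± 93.8 CPM in Col-0 and 1 count in IP-Svi-0 (adjusted p = 3.51e-23). The receptor gene ADR1-L1, a helper NLR across from the F-box gene AT4G33290, was present in both at 24.7 ± 12.9 and 14.9 ± 3.79 CPM (adjusted p = 0.00525, and 0.0516 without replicate 1 of Col-0 at 10 °C).

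**Figure D4:**
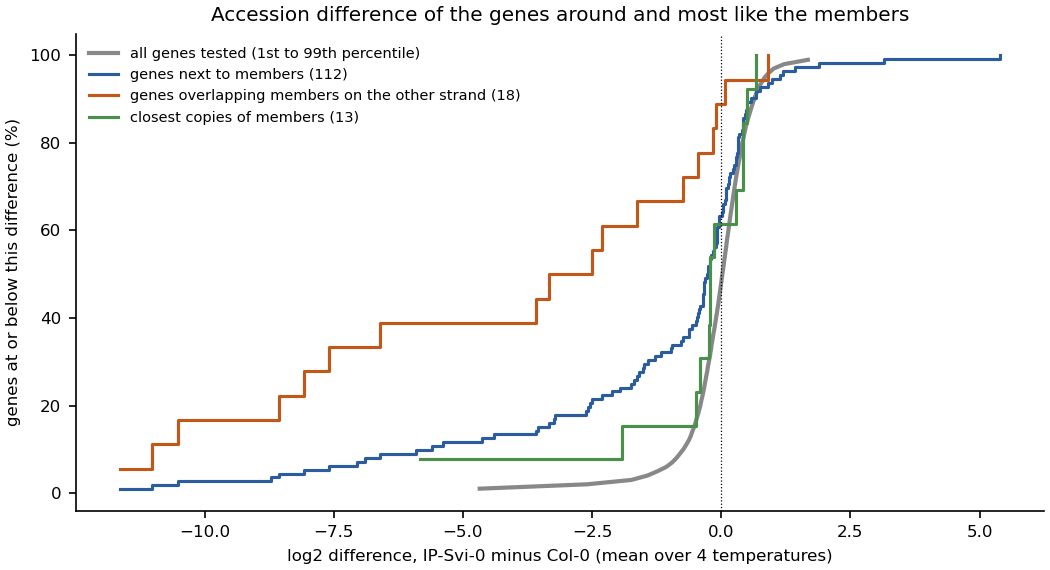
Cumulative share of genes (%) by log2 difference between IP-Svi-0 and Col-0 for all tested genes (grey, 1st to 99th percentile), 112 neighbours of the set, 18 genes across from it on the other strand and 13 closest copies. The curves of the neighbours (median -0.27) and of the genes on the other strand (median -2.91) run to the left of all genes (median 0.02). The median of the closest copies is -0.21, and the neighbours and the genes on the other strand are not separate sets.

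The closest copies show whether a like protein was counted in IP-Svi-0. Some of them lie beside the set, as AT4G01930 does beside AT4G01925, so copies and neighbours are not separate sets. A protein at least 70% identical over at least 70% of its length was found for 58 of the 180 protein-coding genes. Of these 58, 11 had such a protein within the set. Of 49 closest copies outside the set, 13 were tested, 3 were lower and 2 were higher in IP-Svi-0 (23.1% and 15.4%), beside 16.7% and 16.0% of all genes. Their median log2 difference was -0.21 against 0.02 for all tested genes. Of the 49, 9 had counts in Col-0 and none in IP-Svi-0, and 9 had no count in either accession. The following are single genes. AT3G04440, a choline transporter family gene and 99.6% identical to AT3G03700 of the set, was nearly missing too, at 35.3 ± 11.2 against 0.6 ± 0.915 CPM (log2 difference -5.83 ± 0.40, adjusted p = 9.76e-15). MSRB5, a repair enzyme for oxidised methionine and 87.0% identical to MSRB4, was lower (31.9 ± 15.1 against 9.13 ± 4.83 CPM, adjusted p = 8.54e-09). AER, an alkenal reductase and 75.0% identical to AT5G16980, was higher (24.7 ± 6.51 against 42.8 ± 12.5 CPM, adjusted p = 0.00175).

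A family of near-identical loci on chromosome 1 shows how far a count at a copy can be placed. AT1G24996, AT1G25097 and AT1G24822 had 2288, 186 and 9 counts in Col-0. The 891 bases of AT1G24996, exons and intron, were the same letter for letter from the start of AT1G25097 and of AT1G24822. The first 120 bases of the longer coding exon of AT1G24996 are shown because they stand equally at chr1:8799780-8799899, chr1:8814158-8814277 and chr1:8777252-8777371 (TAIR10.1, minus strand), in lower case since no base differs.
AT1G24996, AT1G25097 and AT1G24822: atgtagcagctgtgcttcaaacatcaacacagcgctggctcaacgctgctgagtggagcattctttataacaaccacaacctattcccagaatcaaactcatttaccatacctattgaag
Reads within these bases cannot be told apart between the loci, so the split of counts among the 3 genes is uncertain. All 3 were at 0 counts in IP-Svi-0, where reads aligned to more than 1 place (2.67 to 21.3% of a library) are listed apart from the gene counts. Between AT1G24807 (0 counts in Col-0, 32 in IP-Svi-0) and ASB1, no gene had a count in IP-Svi-0. Most of this stretch was without counts in Col-0 too: of the 29 genes of the region, 18 had no count in either accession. The 21 genes lying between genes of the set held 12 Col-0 counts together.

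The triterpene synthases THAS1 and PEN1 (AT4G15340), both in the set, are diverged copies on different chromosomes, with proteins 78.9% identical. The start of their coding exon of 487 bases is shown at chr5:19460650-19460769 (plus strand) and chr4:8755356-8755475 (minus strand), with the bases that differ in capitals.
THAS1: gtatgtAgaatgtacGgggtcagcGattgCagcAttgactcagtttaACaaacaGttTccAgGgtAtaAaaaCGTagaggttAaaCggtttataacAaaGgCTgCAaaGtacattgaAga
PEN1: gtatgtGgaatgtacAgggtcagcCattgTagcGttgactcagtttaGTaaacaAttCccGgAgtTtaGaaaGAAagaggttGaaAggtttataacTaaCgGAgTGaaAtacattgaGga
Over the exon 83 bases differed and the longest identical stretch was 21 bases, so counts at these copies are separable in this exon. THAS1 stood at 32.2 ± 19.6 CPM and PEN1 at 3.4 ± 2.93 CPM in Col-0. The closest protein to each of them, baruol synthase (BARS1), had 2 Col-0 counts against 16 from IP-Svi-0.

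Temperature was compared in Col-0 alone. The rule used the mean over these 12 libraries but no difference between temperatures. Of the 259 genes, 45 had enough counts for a test and 214 did not. Over the 4 temperatures 8 of 45 were called (17.8%), beside 11.2% of all 8574 genes tested. At 10 against 23 °C, 5 were higher and 4 lower (11.1% and 8.89%), beside 4.47% and 3.78% of all genes (8.25% in either direction). At 16 °C 1 gene was lower and 0 higher, beside 0.991% and 0.7% of all genes (1.69% in either direction). At 27 °C none was called by edgeR or DESeq2, with 5 and 3 genes at an unadjusted p under 0.05, beside 0.0583% of all genes called higher and 0.0933% called lower (0.152% in either direction). DESeq2 called no gene at 16 °C, where edgeR had 9 at an unadjusted p under 0.05. Without replicate 1 of Col-0 at 10 °C, 13 genes were called over the temperatures and 15 at 10 against 23 °C. The 3 contrasts with 23 °C share its libraries. Reads aligned to more than 1 place made up 22.9 to 35.8% of the Col-0 libraries at 16 °C and 26.5% of replicate 2 at 10 °C, beside 3.83 to 7.4% at 23 °C and 3.4 to 12.7% at 27 °C. Without replicate 2 at 10 °C, 9 genes were called at 10 against 23 °C and 3 at 16 against 23 °C. The part of these reads in the calls was not tested. Shares of all genes called with a library left out are not given here, so the counts from those fits cannot be set against them.

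Each temperature was the highest for some of the 259 genes. The mean was highest at 10 °C for 61 genes (23.6%), at 16 °C for 51 (19.7%), at 23 °C for 67 (25.9%) and at 27 °C for 80 (30.9%). Among the other 19328 nuclear genes the shares were 18.1, 17.4, 29.4 and 35.1%. With 3 libraries a temperature and few counts a gene, this order was not tested.

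The 5 genes called higher at 10 than at 23 °C were AT1G17255, AT2G10405, AT4G09432, AT2G25510 and AT1G34842. Of the 20 tested members of the list of hypothetical and unknown proteins, 3 were called over the temperatures or in a contrast. For all tested genes of the set this was 9 of 45. Among these, AT1G52100 and AT1G57850 passed the count filter only through libraries at 23 and 27 °C. AT1G17255, the noncoding gene across from RLP3, had 70.3, 66.3 and 60.04 CPM at 10 °C, 31.9, 31.4 and 42.7 CPM at 16 °C, 17.4, 10.2 and 19.9 CPM at 23 °C, and 8.07, 17.2 and 25.9 CPM at 27 °C. All libraries at 10 and 16 °C exceeded those at 23 and 27 °C. The change from 23 to 10 °C was 2.29 ± 0.36 on the log2 scale (SE, edgeR adjusted p = 9.45e-05). RLP3 on the other strand had 120 ± 15.8 CPM at 10 °C and 89.96 ± 26.3 CPM at 23 °C (SD, n = 3), a change of 0.66 ± 0.30 that did not pass the test (edgeR adjusted p = 0.182), and the difference between the strands was not tested.

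AT2G10405, a pseudogene across from SADHU1-1, an element of a class of noncoding retroposons, had 163, 175 and 270 CPM at 10 °C and 63.0, 81.8 and 59.7 CPM at 23 °C. The libraries at 10 °C lay above all others, and the change was 1.83 ± 0.28 (SE, edgeR adjusted p = 5.93e-05). SADHU1-1 itself had 50.02 ± 8.9 and 61.8 ± 4.97 CPM at these temperatures (SD, n = 3, edgeR adjusted p = 0.902). AT4G09432, which shares 119 bp of exon with the NLR gene AT4G09430 and overlaps AT4G09435, had 43.1, 27.1 and 58.2 CPM at 10 °C against 9.38, 7.3 and 19.9 CPM at 23 °C, without overlap (change 2.13 ± 0.38, edgeR adjusted p = 0.000453). The NLR gene had 52.0 ± 13.3 and 61.7 ± 3.58 CPM (edgeR adjusted p = 0.982).

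AT2G25510, an uncharacterised protein gene, had 86.3, 21.1 and 58.2 CPM at 10 °C against 22.8, 11.7 and 10.8 CPM at 23 °C, and the lowest library at 10 °C lay within the range at 23 °C (change 2.13 ± 0.42, edgeR adjusted p = 0.00132). The pseudogene AT1G34842 had 147, 217 and 212 CPM against 134, 108 and 143 CPM (change 0.83 ± 0.26, edgeR adjusted p = 0.0444). That call was the weakest, and leaving out any of 7 libraries ended it, with adjusted p up to 0.204.

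CYP705A5 and THAS1 of the thalianol cluster were lower at 10 than at 23 °C. CYP705A5 had 30.4, 30.1 and 22.5 CPM at 10 °C, 29.0, 19.97 and 42.7 CPM at 16 °C, 91.1, 67.2 and 83.2 CPM at 23 °C, and 84.8, 53.0 and 37.8 CPM at 27 °C. Every library at 23 °C exceeded every library at 10 and 16 °C. The change from 23 to 10 °C was -1.31 ± 0.33 (SE, edgeR adjusted p = 0.0104, and 0.08 without replicate 3 at 10 °C). THAS1 had 22.4, 9.04 and 16.9 CPM at 10 °C and 72.4, 48.2 and 52.4 CPM at 23 °C, without overlap (change -1.52 ± 0.37, edgeR adjusted p = 0.00915, and 0.0598 without replicate 1 at 23 °C). At 27 °C THAS1 had 40.4, 18.6 and 15.9 CPM, and its change from 23 °C did not pass the test (edgeR adjusted p = 0.238).

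CYP708A2, the gene of the cluster still counted in IP-Svi-0, had 21.3 ± 8.62 CPM at 10 °C and 51.3 ± 11.0 CPM at 23 °C in Col-0 (SD, n = 3, change -1.05 ± 0.36, edgeR adjusted p = 0.0705). Its IP-Svi-0 means at these temperatures were 108 ± 12.8 and 143 ± 62.8 CPM. The acyltransferase gene AT5G47980 had too few counts for a test, with 3.2, 0 and 0 CPM at 10 °C against 13.4, 8.76 and 5.42 CPM at 23 °C. Summed root markers in Col-0 were 24.1 to 38.3 CPM at 10 °C and 30.7 to 40.2 CPM at 23 °C, ranges that overlap, and their part in the thalianol values was not tested.

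AT1G52100, a mannose-binding lectin gene, was nearly absent below 23 °C. It had 1.6, 0 and 0 CPM at 10 °C, 5.81, 0 and 0 CPM at 16 °C, 9.38, 36.5 and 30.7 CPM at 23 °C, and 33.6, 34.4 and 23.9 CPM at 27 °C. With 1 count at 10 °C and 2 at 16 °C the warm libraries did not overlap the cold ones. Only the warm libraries brought the gene past the count filter, so its entry to the test rested on them. The edgeR adjusted p was 0.000953 at 10 °C and 0.0303 at 16 °C against 23 °C, and the latter rose to 0.196 without replicate 2 at 16 °C, 0.108 without replicate 3 at 16 °C, 0.141 without replicate 2 at 23 °C and 0.0831 without replicate 3 at 23 °C.

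AT1G57850, a gene for a TIR domain protein of the kind found in immune receptors, had no count at 10 °C. It had 5.81, 0 and 18.3 CPM at 16 °C, 6.7, 10.2 and 28.9 CPM at 23 °C, and 20.2, 14.3 and 21.9 CPM at 27 °C. Only libraries at 23 and 27 °C, where it was high, brought it past the count filter, so its entry to the test rested on them. Against the limit of 3 counts at 10 °C it was at least 7.59-fold lower there than at 23 °C, with an edgeR adjusted p of 0.0136. That p rose to 0.0674 without replicate 3 at 10 °C and 0.0681 without replicate 3 at 23 °C. Of the listed NLR genes 5 were tested and 0 were called over the temperatures by edgeR, too few to set against the 11.2% of all genes. AT5G48770 had 85.4 ± 19.1 CPM at 10 °C and 187 ± 16.0 CPM at 27 °C (SD, n = 3), and its adjusted p over the 4 temperatures was 0.109 by edgeR.

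**Figure D5:**
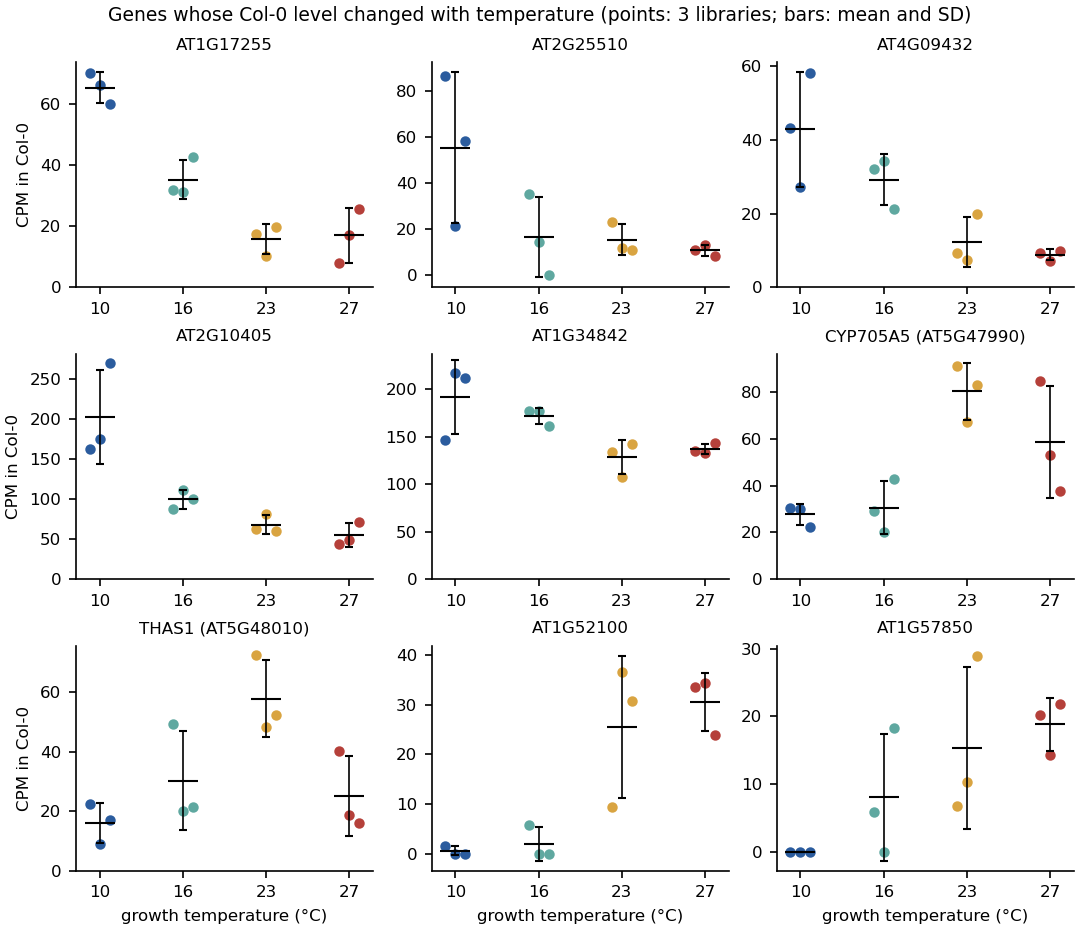
CPM in each Col-0 library by growth temperature (°C) for the 9 genes called in any contrast, with bars for the mean and SD of 3 libraries. AT1G17255, AT2G25510, AT4G09432, AT2G10405 and AT1G34842 are highest at 10 °C, and CYP705A5, THAS1, AT1G52100 and AT1G57850 are lowest there.

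The most abundant genes of the set did not pass the temperature test. AT4G01595 had 393 ± 75.3 CPM at 10 °C and 588 ± 78.8 CPM at 27 °C (SD, n = 3, edgeR adjusted p over the temperatures 0.665). DRP4A had means of 255 to 306 CPM (adjusted p = 0.649 by edgeR) and WRKY41 had 87.5 ± 19.1 CPM at 10 °C and 150.1 ± 63.4 CPM at 27 °C (adjusted p = 0.6 by edgeR). AT1G24996 had 585 ± 431 CPM at 16 °C, where replicate 1 stood apart, and its edgeR adjusted p was 0.0601. A p above the threshold does not show that these levels were the same.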

How the data were processed

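Strand-specific mRNA libraries, 24 in 8 groups, were made from seedlings of 2 accessions grown at 4 temperatures. Per the submitters' processing notes, the authors used FastQC, HISAT2, HTSeq, Cufflinks and Cuffdiff with the TAIR10 build. Tool versions are not given in the sources used here. Raw read counts per gene ID make up the deposited table. Its 5 lines of reads not assigned to a gene and 279 organelle genes were left out of CPM and of the choice of genes. All 24 libraries were used. Replicate numbers were not used to pair libraries.

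CPM is the count over the sum of nuclear gene counts, times 1000000. Genes were placed, and sequences read, with the RefSeq genome and annotation of TAIR10.1, in which 32835 IDs matched. Overlap means shared exon bases, and closest proteins come from BLAST 2.17.0 on translated coding sequences. Temperature was tested in the 12 Col-0 libraries and the accessions in all 24 with edgeR 4.0.16 (R 4.3.3) by quasi-likelihood, with TMM scaling, filterByExpr at a minimum count of 10 and Benjamini-Hochberg adjustment over all genes tested (8574 and 10097). Organelle genes stayed in these fits. Genes were called at an adjusted p under 0.05, and the SE is the log2 change over the root of F. On simulated data the Col-0 contrast of 10 against 23 °C called 24% of 2-fold and 87% of 4-fold changes, with 9.02% of calls false, and the accession contrast called 87% and 100%, with 6.5% false.

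The members and the lists were chosen with earlier results of these data known. The rule for names covers the 15 most abundant members, called members, members of runs of 3 or more with their bounds, up to 3 of each list, members with a symbol at 10 CPM or more, their partners and copies, and genes at the limits. Not every gene it covers is printed. The DRP4, thalianol, PP2, HSD and terpene regions, their flanks, AGL102, WOX2, HSD2, HSD3, the named neighbours and the lists of C1 domain and terpenoid genes were chosen after their values were seen. Alternatives were DESeq2 1.42.0 and its size factors, other filters, a replicate block, other limits of the rule and each library left out. Intervals and floors cover counting error only.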

Additional observations from a re-analysis of the deposited data

How the results depend on the processing

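The number of genes without a count in IP-Svi-0 was 424 with a Col-0 minimum of 0.5 CPM, 168 with 2 CPM, 97 with 5 CPM, 499 with up to 3 counts allowed in IP-Svi-0, and 482 with library sizes from genes without an overlap, which raises every CPM. It ran from 258 to 272 with a library left out. Over the 4 temperatures 18 genes of the set were called with no filter and 18 with at least 1 CPM in 3 libraries, and 7 to 13 with a library left out. At 10 °C these were 6 to 15. At 16 °C the count was 0 with DESeq2, 0 with all 24 libraries, 2 with a minimum count of 3, 5 with no filter, 5 with at least 1 CPM in 3 libraries, and 0 to 3 with a library left out. At 27 °C it was 1 with no filter and 1 with at least 1 CPM in 3 libraries. With the nearest 2 genes on each side, 92 of 206 tested neighbours were called (31.6% lower and 13.1% higher). The main comparison called 59 of 112 (38.4% and 14.3%), and 60 to 67 were called with a library left out. Among closest copies 10 were called with no filter, 12 with at least 1 CPM in 3 libraries, 1 at 90% identity, and 5 to 7 with a library left out. The cause of these changes was not tested, except that the filters change which genes were tested. Shares of all genes called under each setting are not given here, so the counts do not show whether these genes changed more than others. Deviations of same-numbered Col-0 libraries correlated at -0.131 to 0.27 (18 pairs, median 0.081, 7 over 0.1), beside a median of -0.054 for different numbers. Not every pair was over 0.1, so numbers were not read as pairs. With the replicate block 11 genes were called over the temperatures, 10 at 10 °C, 5 at 16 °C and 1 at 27 °C. For 51 single-gene results, 1264 of 1298 alternative values kept their direction and call, 26 lost the call, 8 gained it and 0 reversed. The filter at a minimum count of 10 left 45 of the 259 genes for the temperature tests, and a minimum count of 3 left 127.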
